A study of Bos taurus with 9 samples.

Results

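Of the 14384 H3K9ac peaks called in rumen epithelial tissue before weaning, 1435 touched no H3K27ac peak of the same time point, a share of 9.98% (95% CI 9.50 to 10.5). These 1435 peaks, called members here, were selected on the H3K9ac and H3K27ac lists before weaning alone. Touching, or contact, means sharing at least 1 bp. The other 12949 H3K9ac peaks touched H3K27ac and are called co-marked peaks. The number of members and their distance to H3K27ac before weaning follow from how they were chosen and are descriptions. Contact with H3K9me3 and with RNA polymerase II (RNA pol II), and everything after weaning, rests on 6 lists that the rule for members did not use, although the rule itself was set with earlier results of these data known. Among them, the H3K9ac and H3K27ac lists after weaning are of the marks that the rule used.

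The study applied ChIP-seq, the sequencing of DNA pulled down with antibodies to chromatin proteins, to rumen epithelial tissue of Holstein calves before and after weaning, with antibodies to H3K9ac, H3K27ac, RNA pol II and H3K9me3. Each of the 8 combinations of target and time point was 1 library, and its peak list was called against 1 input library of rumen chromatin that went through no antibody. The sources used here give no age, number of calves or pooling, and no gene annotation of the genome build was used, so the tissue label was not checked against marker genes. With 1 library per group nothing was tested between time points, and the peaks of a library are not replicates.

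Acetylation of lysine 9 or lysine 27 of histone H3 loosens the hold of the histone tail on DNA and marks active promoters and enhancers. Different acetyltransferases place them, GCN5 and PCAF acting mainly on lysine 9 and p300 and CBP on lysine 27, and histone deacetylases remove both. RNA pol II transcribes protein-coding genes, whereas trimethylation of lysine 9 marks heterochromatin and cannot sit on the same lysine as acetylation. The rumen epithelium of a calf matures around weaning, when solid feed is fermented to short-chain fatty acids, among them butyrate, an inhibitor of histone deacetylases.

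The lists differed widely in size. There were 74249 H3K27ac peaks before and 30446 after weaning, 2127 H3K9ac peaks after weaning, 2056 and 738 RNA pol II peaks, and 2410 and 4170 H3K9me3 peaks. The labels assign the smaller RNA pol II list to after weaning and were followed here, whereas the text of the study places the smaller list before weaning. If that text holds, every RNA pol II value given here as before weaning is one after weaning, and the reverse. A list with more peaks can give more contacts, so contact shares are compared between members and co-marked peaks within a list. The H3K9ac libraries were run on lane 1 and the H3K27ac libraries on lane 2, so mark and lane cannot be told apart, and the H3K9me3 libraries were on lanes 2 (before) and 1 (after), where lane and weaning cannot be told apart. In bulk tissue, fewer cells with a mark and less of it per cell cannot be told apart either. Intervals are 95% Wilson intervals for shares and Newcombe intervals for differences. They cover counting error within single libraries only, and neighbouring peaks are not independent.

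Members were narrow. Their median width was 226 bp (95% CI 223 to 229), with quartiles of 202 and 262 bp and a highest value of 601 bp. Co-marked peaks had a median of 273 bp (271 to 276), quartiles of 224 and 368 bp and a highest value of 1581 bp. The lowest width in the list, 200 bp, was that of 335 members (23.3%, 21.2 to 25.6) and of 1184 co-marked peaks (9.14%, 8.66 to 9.65). When all H3K9ac peaks were split into 4 width classes of nearly equal number, 649 of the 3606 peaks of 200 to 220 bp were members (18.0%), as were 469 of the 3604 of 221 to 266 bp (13.01%), 250 of the 3596 of 267 to 356 bp (6.95%) and 67 of the 3578 of 357 bp or more (1.87%). The share of members was lower at each step of width, and the part of width in the choice of members was not tested.

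Most members lay within 10 kb of an H3K27ac peak. The median distance to the nearest H3K27ac peak before weaning, counted as the bases between both peaks, was 1451 bp (95% CI 1279 to 1696), with quartiles of 361 and 6648 bp. Within 100 bp there were 111 members (7.74%), within 1 kb 605 (42.2%), within 10 kb 1139 (79.4%) and within 100 kb 1390 (96.9%), which left 45 farther away. H3K27ac peaks stood within 1 kb on both sides of 85 members (5.92%) and on 1 side only of 520 (36.2%). The nearest co-marked H3K9ac peak lay at a median of 24239 bp, with 115 members (8.01%) having one within 1 kb, and the nearest other member at a median of 224332 bp. These distances are not ranked against each other, since they depend on the number of peaks in each set.

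At the edge of the choice, the closest member lay 1 bp from an H3K27ac peak, at chr13:44622096-44622346 (251 bp), and touched none of the other 6 lists. The co-marked peak with the least overlap, chr5:90946991-90947190 (200 bp), shared 5 bp with H3K27ac before weaning and touched an H3K27ac peak of 557 bp after weaning. In all, 21 members had at most 20 bp between them and H3K27ac, and 26 co-marked peaks shared at most 20 bp with it. Of the co-marked peaks, 10976 (84.8%) were wholly covered by H3K27ac. The number of members depends on the limit all the same, since 830 of the 1435 were left when more than 1 kb was required.

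**Figure D1:**
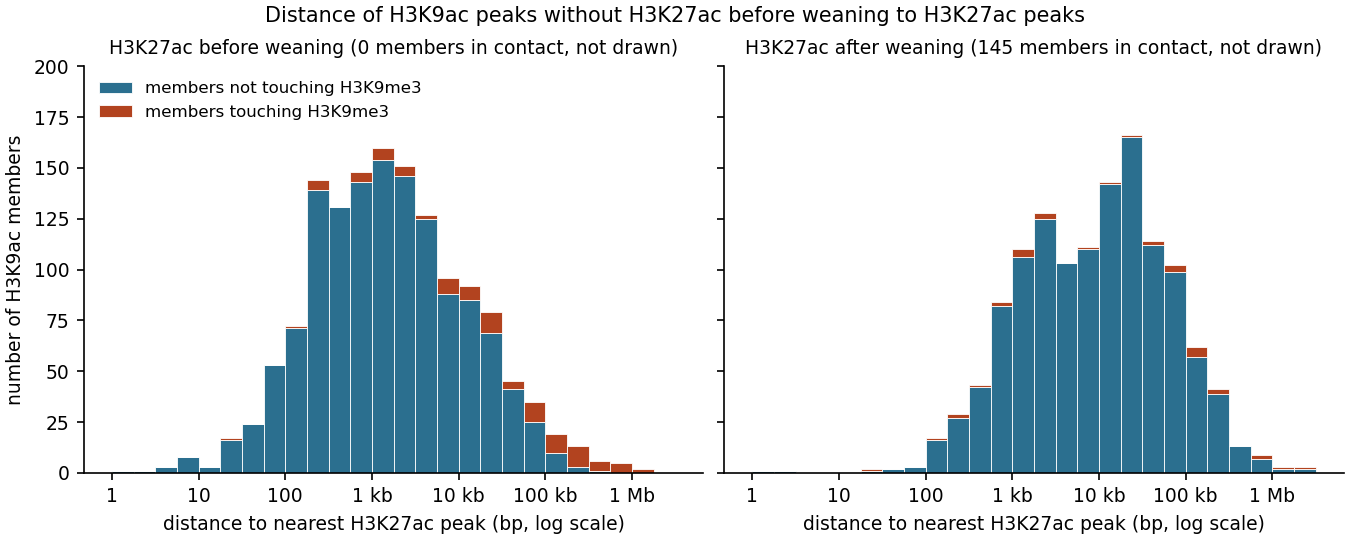
Number of members by distance to the nearest H3K27ac peak (bp, log scale, 4 bins from each tick to the next) before weaning (left) and after weaning (right), split by whether a member touched an H3K9me3 peak at either time point. Before weaning the 95 members touching H3K9me3 lay farther out (median 30464 bp) than the 1340 others (median 1298 bp), and the 145 members in contact after weaning are not drawn.

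Members differed among themselves in how many of the 6 other lists they met. No contact with any of the 6 lists was found for 1251 members (87.2%), against 4793 co-marked peaks (37.0%). H3K27ac after weaning was the only list met by 78 members (5.44%) and by 6492 co-marked peaks (50.1%). It is the later list of the mark that the rule used to part members from co-marked peaks. A single list was touched by 87 members, and 2, 3 or 4 lists by 7, 6 and 7 members. At the other end, 26 members touched 5 lists and 51 touched all 6 (3.55%). Among the co-marked peaks, 6638 touched 1 list, 1369 touched 2, and only 5 and 27 touched 5 and 6 lists, the latter being 0.209% of them. The 3 most frequent combinations among members were no list, H3K27ac after weaning alone (78 members) and all 6 lists, and the fourth was all lists but H3K27ac after weaning (18 members).

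**Figure D2:**
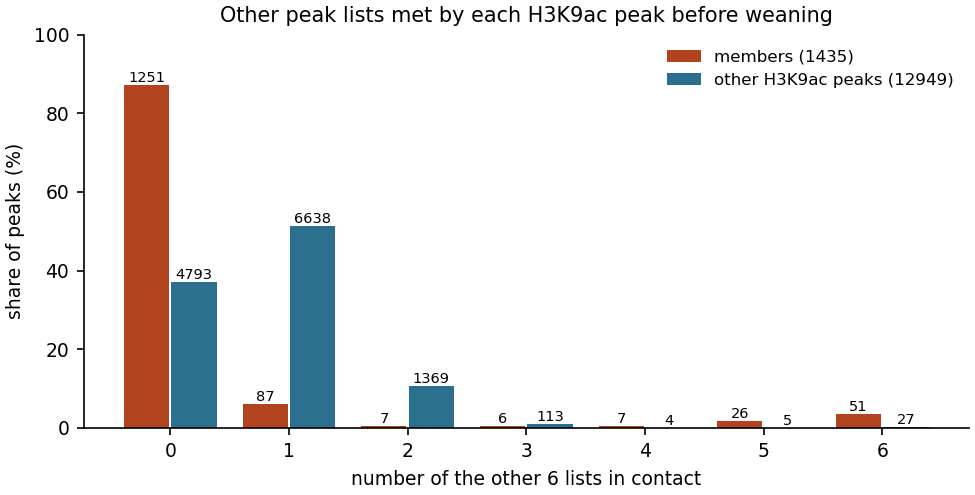
Share of members and of co-marked H3K9ac peaks (%) by the number of the other 6 peak lists that a peak touched, with the number of peaks above each bar. Members were mostly at 0 (1251 of 1435), with 77 at 5 or 6 lists, whereas co-marked peaks were mostly at 0, 1 or 2.

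Few members touched RNA pol II, and before weaning their share was within counting error of that of the co-marked peaks. Among all H3K9ac peaks before weaning the share was 7.07%. Among members it was 91 of 1435 (6.34%, 5.19 to 7.72), and among co-marked peaks 926 of 12949 (7.15%, 6.72 to 7.61). The difference, members minus co-marked peaks, was -0.810 percentage points with an interval from -2.05 to 0.637, which holds 0. Its sign and size moved with the choice of peaks. It was 2.49 points for members more than 1 kb from H3K27ac, 3.73 among H3K9ac peaks wider than the median and 1.47 where contact had to cover 50% of the peak. It was -2.15 points without 2 Mb on chromosome 17 that are described further on, -2.64 with H3K9ac peaks merged within 1 kb, -6.47 without peaks touching H3K9me3 and -6.96 with contact counted within 1 kb. For the RNA pol II list assigned to after weaning by the labels, there were 86 members (5.99%, 4.88 to 7.34) and 46 co-marked peaks (0.355%, 0.267 to 0.473) in contact, a difference of 5.64 points (4.52 to 6.99), where 0.918% of all H3K9ac peaks did so. Members thus made up most of the H3K9ac peaks before weaning that met RNA pol II after weaning, 86 of 132. Seen from the other side, 93 of the 2056 RNA pol II peaks before weaning touched a member (4.52%) and 911 touched a co-marked peak (44.3%), against 85 (11.5%) and 46 (6.23%) of the 738 after weaning.

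H3K9me3, the mark of heterochromatin, met members far more often than co-marked peaks. Before weaning 0.911% of all H3K9ac peaks touched it, and among them were 93 members (6.48%, 5.32 to 7.87) and 38 co-marked peaks (0.293%, 0.214 to 0.402), a difference of 6.19 points (5.02 to 7.58). After weaning 0.848% did, with 85 members (5.92%, 4.82 to 7.27) and 37 co-marked peaks (0.286%, 0.207 to 0.394), a difference of 5.64 points (4.53 to 6.98). The same members were concerned at both time points, since 83 of the 95 members that touched H3K9me3 at all did so before and after weaning. In both lists members outnumbered co-marked peaks although they were 9.98% of the H3K9ac peaks.

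After weaning, H3K9ac was found again at few peaks of either kind. The later list holds 2127 peaks against 14384 before weaning, which limits how many can be found again. Of its peaks, 82 touched a member (3.9%) and 862 a co-marked peak (40.5%). H3K9ac after weaning touched 6.6% of all H3K9ac peaks before weaning, 83 members (5.78%, 4.69 to 7.11) and 866 co-marked peaks (6.69%, 6.27 to 7.13), a difference of -0.904 points whose interval, -2.08 to 0.490, holds 0. The alternatives gave values on both sides of 0 here too, with 1.87 points for members more than 1 kb from H3K27ac, 2.42 among peaks wider than the median and 0.918 with cover of 50%, and with -1.97 without the 2 Mb on chromosome 17, which is within the reported interval, -3.04 with merged peaks, -3.59 with contact within 1 kb and -5.92 without peaks touching H3K9me3. H3K27ac after weaning touched 56.7% of all H3K9ac peaks before weaning, but only 145 members (10.1%, 8.65 to 11.8) against 8005 co-marked peaks (61.8%, 61.0 to 62.7), a difference of -51.7 points (-53.4 to -49.9). The rule did not use this list, but it is of the mark by which members and co-marked peaks were parted, so it gives no separate support. It is also shorter, with 30446 peaks against 74249 before weaning, and left out many co-marked peaks too. The median distance of members to H3K27ac after weaning was 7426 bp (6217 to 8796), with 327 members (22.8%) within 1 kb, against 76.4% of the co-marked peaks.

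**Figure D3:**
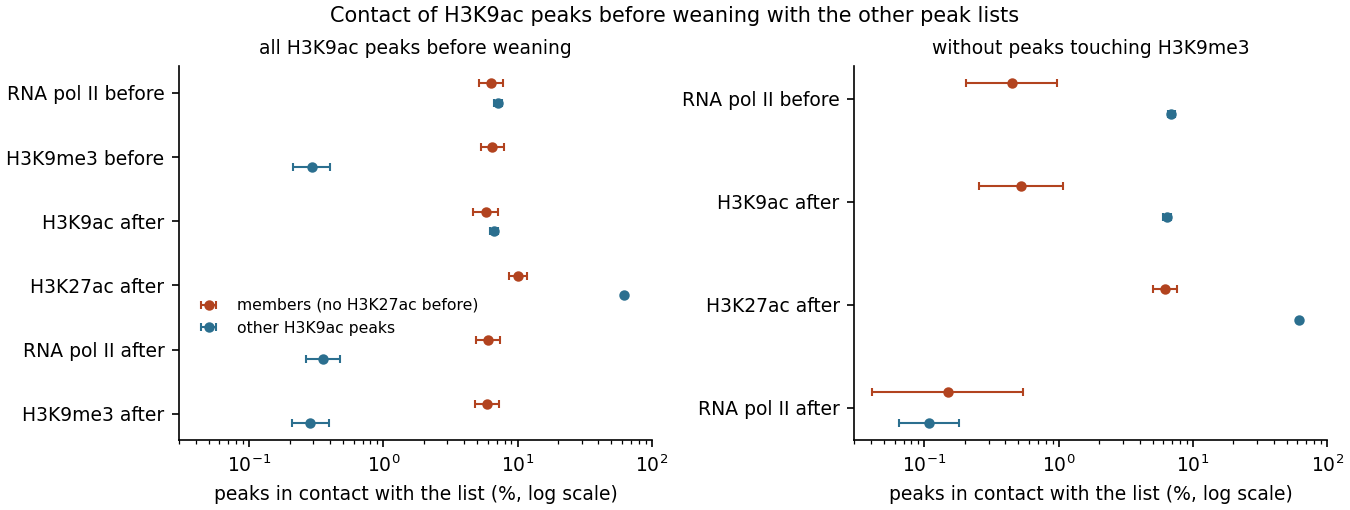
Share of H3K9ac peaks before weaning (%, log scale) that touched each other peak list, for members and co-marked peaks, with 95% Wilson intervals, over all peaks (left) and without the peaks that touched H3K9me3 at either time point (right). Without those peaks the members fell from 6.34% to 0.448% for RNA pol II before weaning and from 5.99% to 0.149% after weaning.

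The contacts of members with RNA pol II were almost all at the 95 members that also touched H3K9me3. Of the 96 members with RNA pol II at either time point, 90 touched H3K9me3 (93.8%), against 34 of the 929 co-marked peaks with RNA pol II (3.66%). Without peaks touching H3K9me3, RNA pol II before weaning met 6 of 1340 members (0.448%, 0.205 to 0.973) and 892 of 12904 co-marked peaks (6.91%, 6.49 to 7.36), so that the difference became -6.47 points (-6.98 to -5.79). H3K9ac after weaning met 7 members (0.522%, 0.253 to 1.07) and 831 co-marked peaks (6.44%, 6.03 to 6.88), a difference of -5.92 points (-6.43 to -5.23). For H3K27ac after weaning the values were 83 members (6.19%, 5.02 to 7.61) and 7967 co-marked peaks (61.7%, 60.9 to 62.6). For RNA pol II after weaning they were 2 members (0.149%) and 14 co-marked peaks (0.108%), and the interval of their difference, -0.0902 to 0.437 points, holds 0.

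The 95 members that touched H3K9me3 (6.62% of members) mostly touched several of the other lists too. RNA pol II before weaning was touched by 85 of them (89.5%), RNA pol II after weaning by 84 (88.4%), H3K9ac after weaning by 76 (80%) and H3K27ac after weaning by 62 (65.3%). Contact with at least 5 of the 6 lists, which include the H3K9me3 lists that define the class, was found for 77, and 11 were in neither acetylation list after weaning. Their median width was 260 bp (246 to 283) and their median distance to H3K27ac before weaning 30464 bp (15618 to 67072), against 224.5 bp (221 to 227) and 1298 bp (1146 to 1472) for the 1340 other members. Of the 45 co-marked peaks that touched H3K9me3, 34 touched RNA pol II before weaning (75.6%), 32 RNA pol II after weaning (71.1%), 35 H3K9ac after weaning (77.8%) and 38 H3K27ac after weaning (84.4%). The 2 classes were not tested against each other. The input library was the background of every list, and its part in positions found in many lists was not tested.

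Some of these peaks had the same start or end as the peak they touched. For lists other than H3K9me3, the co-marked peaks counted here include those without H3K9me3 contact, so the classes are not alike. For RNA pol II before weaning this held for 17 of the 85 members touching H3K9me3 (20%) and 110 of the 926 co-marked peaks (11.9%). For H3K9ac after weaning it held for 20 of 76 (26.3%), 3 of them identical at both ends, and for 119 of 866 co-marked peaks (13.7%), 12 of them identical. For H3K27ac after weaning it held for 21 of 62 (33.9%) and for 1343 of 8005 co-marked peaks (16.8%), and for 5 of the 83 members without H3K9me3 (6.02%). The shares were nearer for RNA pol II after weaning, with 17 of 84 (20.2%) and 8 of 46 co-marked peaks (17.4%). For H3K9me3 after weaning they were 6 of 85 (7.06%) and 4 of 37 (10.8%), counts too small to rank. For H3K9me3 before weaning they were 10 of 93 (10.8%) and 3 of 38 (7.89%), and 2 of the 7 members with H3K9ac after weaning and no H3K9me3 had such an edge.

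The share of members touching H3K9me3 was higher at each step of the distance from H3K27ac before weaning. It was 1 of 111 within 100 bp (0.901%), 11 of 494 from there to 1 kb (2.23%), 21 of 534 up to 10 kb (3.93%), 31 of 251 up to 100 kb (12.4%) and 31 of 45 beyond 100 kb (68.9%). The remote members were therefore largely those that met H3K9me3, and 14 members lay beyond 100 kb without it. For members without H3K9me3 contact, H3K27ac after weaning was touched by 51 of the 593 within 1 kb of H3K27ac before weaning (8.60%, 6.60 to 11.1) and by 32 of the 747 farther away (4.28%, 3.05 to 5.99), a difference of 4.32 points (1.69 to 7.13). H3K9ac after weaning was touched by 2 of the 593 (0.337%) and 5 of the 747 (0.669%), a difference of -0.332 points whose interval, -1.25 to 0.631, holds 0.

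**Figure D4:**
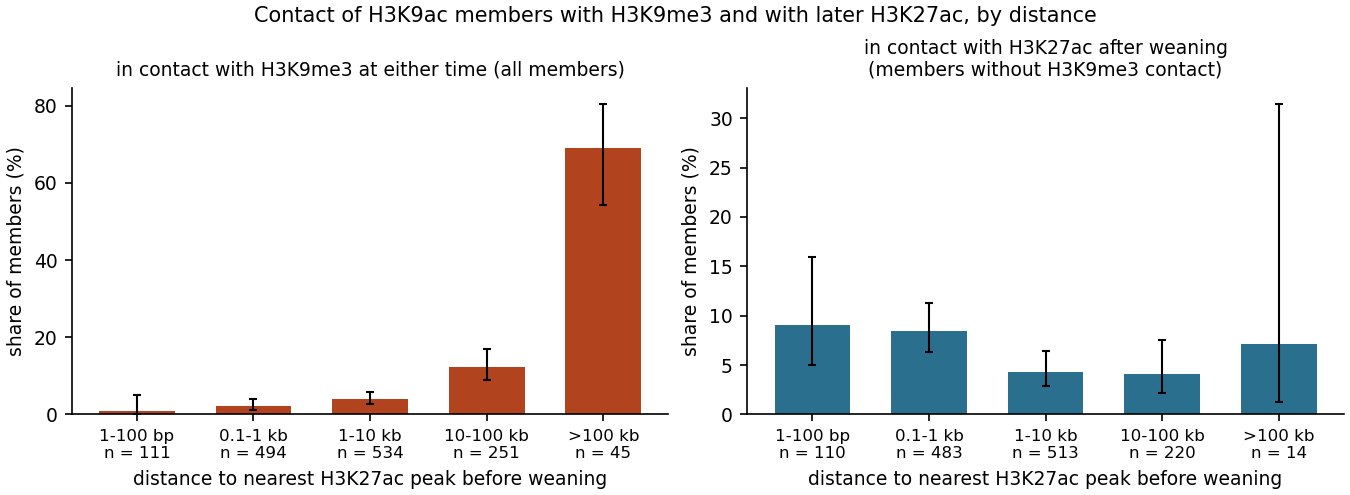
Share of members (%) that touched H3K9me3 at either time point (left, all members) and H3K27ac after weaning (right, members without H3K9me3 contact), by distance to the nearest H3K27ac peak before weaning, with 95% Wilson intervals and the number of members in each class. Contact with H3K9me3 went from 0.901% within 100 bp to 68.9% beyond 100 kb, and the class beyond 100 kb on the right holds 14 members.

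Members had the lower contact with H3K27ac after weaning at every width. From the narrowest to the widest of the 4 width classes, 6.93, 9.38, 15.2 and 26.9% of the members touched it, against 46.8, 54.4, 63.2 and 79.8% of the co-marked peaks, so members were lower in each class. For RNA pol II before weaning, without peaks touching H3K9me3, the members gave 2 of 629, 4 of 437, 0 of 223 and 0 of 51, against 4.13, 5.22, 6.15 and 11.5% of the co-marked peaks. The counts of 0 allow shares of up to 1.69% and 7.01% by the upper ends of their intervals, both under the values of the co-marked peaks. With the peaks touching H3K9me3 kept, the shares of members were 2.93, 6.61, 10 and 23.9%, against 4.16, 5.49, 6.46 and 11.8%, and the intervals of the difference held 0 in the first class (-2.54 to 0.499) and in the second (-0.973 to 3.85) but not in the third (0.288 to 7.96) or the widest (3.38 to 23.6).

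Among the 83 members with H3K27ac after weaning and no H3K9me3, 78 touched no further list. The 5 widest of these 83, a set chosen after their values were seen, lay at chr2:5620975-5621462 (488 bp, H3K27ac peak of 200 bp), chr16:29545488-29545933 (446 bp, 212 bp), chr21:33669098-33669502 (405 bp, 577 bp), chr8:58007586-58007987 (402 bp, 200 bp) and chr11:24264977-24265333 (357 bp, 376 bp). Their distances to H3K27ac before weaning were 2798, 697, 115, 139 and 173 bp. Of all 83, 51 lay within 1 kb of H3K27ac before weaning, as did 593 of the 1340 members without H3K9me3 contact (44.25%). With all members counted, 149 H3K27ac peaks after weaning touched a member, and 135 of these touched no H3K27ac peak before weaning.

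The widest members included peaks with many contacts and peaks with none. The widest, chr18:52775928-52776528, was 601 bp long, lay 5638 bp from H3K27ac before weaning and touched all 6 lists, with RNA pol II peaks of 846 bp before and 991 bp after weaning, H3K9me3 peaks of 934 and 943 bp, and peaks of 265 bp for H3K9ac and 468 bp for H3K27ac after weaning. The second, chr10:82620380-82620978 (599 bp, 37148 bp from H3K27ac), touched RNA pol II (282 bp) and H3K9me3 (725 bp) before weaning and H3K9ac (234 bp) and H3K27ac (295 bp) after weaning. The next 3 touched none of the 6 lists. They lay at chr7:63803985-63804574 (590 bp, 2922 bp from H3K27ac), chr4:94263185-94263739 (555 bp, 354 bp) and chr4:94650779-94651313 (535 bp, 289 bp).

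Besides the widest member, the widest of those touching all 6 lists lay on chromosomes 11, 19 and 17. At chr11:61798834-61799346 (513 bp, 170662 bp from H3K27ac before weaning) the RNA pol II peaks were 1291 and 981 bp wide before and after weaning, the H3K9me3 peaks 1351 and 1245 bp, and the H3K9ac and H3K27ac peaks after weaning 513 and 609 bp. The member at chr19:3969921-3970429 (509 bp, 3187 bp) had RNA pol II peaks of 787 and 623 bp and H3K9me3 peaks of 771 and 797 bp, with 564 and 388 bp for the acetylation peaks. At chr17:75154789-75155251 (463 bp, 7005 bp) the RNA pol II peak was 542 bp at both time points. The member at chr17:50641249-50641702 (454 bp) was 31 bp from H3K27ac before weaning and lay under an H3K27ac peak of 1083 bp after weaning. At each of these 5 members the peaks of RNA pol II and H3K9me3 were wider than the member at both time points. The H3K9ac peak after weaning was at least as wide as the member at 4 of them, the member on chromosome 18 being the exception.

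The members most remote from H3K27ac before weaning all touched H3K9me3. The most remote, at chr18:27782907-27783154 (248 bp), was 1225336 bp away and touched all 6 lists, as did chr10:92080951-92081151 (201 bp, 732313 bp away) and chr14:727162-727390 (229 bp, 685620 bp away). The second, chr5:52841058-52841272 (215 bp, 1042486 bp away), met RNA pol II and H3K9me3 before weaning and H3K9ac after weaning. The third, chrX:37447237-37447461 (225 bp, 737376 bp away), met H3K9me3 before weaning only. Among the members without H3K9me3 contact, a set looked at after these values were seen, the most remote were chr1:54817425-54817624 (200 bp, 428352 bp away) and chr11:27581755-27581961 (207 bp, 308623 bp away), and neither touched any list.

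RNA pol II without H3K9me3 was found at 6 members. Of the 5 widest, chr21:69646443-69646694 (252 bp, RNA pol II peak of 253 bp before weaning) and chr17:51196560-51196805 (246 bp, 249 bp) touched no other list. The member at chrX:102774531-102774767 (237 bp) had RNA pol II peaks of 233 bp before and 200 bp after weaning. The member at chr5:45355496-45355721 (226 bp) had RNA pol II peaks of 408 and 223 bp and, after weaning, H3K9ac and H3K27ac peaks of 248 and 319 bp. At chr10:101853145-101853362 (218 bp) an RNA pol II peak of 205 bp was followed by H3K9ac and H3K27ac peaks of 211 and 216 bp after weaning. The sixth, named after its values were seen, was chr19:43918756-43918963 (208 bp, 418 bp). Within 1 kb of RNA pol II before weaning there were 13 members without H3K9me3 contact (0.970%) and 1778 such co-marked peaks (13.8%), and within 10 kb 80 (5.97%) and 2518 (19.5%).

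H3K9ac after weaning, without H3K9me3, was found at 7 members, listed after their values were seen. They were the members on chromosomes 5 and 10 just named, chr22:6638544-6638821 (278 bp, H3K9ac peak of 253 bp after weaning), chr25:27266745-27267001 (257 bp, 232 bp), chr18:62638964-62639198 (235 bp, 204 bp), chr1:119738600-119738807 (208 bp, 235 bp) and chr10:81085834-81086034 (201 bp, 227 bp). Of these, the members on chromosomes 22, 25 and 18 also touched H3K27ac after weaning (455, 233 and 561 bp). Among members with H3K9me3 contact, the widest with H3K9ac after weaning were those already described and chr26:35788491-35788978 (488 bp, 164531 bp from H3K27ac before weaning), whose H3K9ac peak after weaning was 831 bp wide and which touched all lists but H3K27ac.

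Members were found on 30 chromosomes, with a share of the H3K9ac peaks from 18 of 365 on chromosome 29 (4.93%, 3.14 to 7.66) to 54 of 313 on chromosome 9 (17.3%, 13.5 to 21.8). Chromosome 17 came next, with 62 of 400 (15.5%, 12.3 to 19.4), of which 27 touched H3K9me3, and without peaks touching H3K9me3 its share was 9.59%. On chromosome 9 that share stayed at 14.7%. In bins of 1 Mb, 866 of the 1861 bins with an H3K9ac peak held a member, 527 of them a single one and 23 at least 5. On chromosome 17 between 50 and 51 Mb, 12 of 13 H3K9ac peaks were members and all 12 touched H3K9me3, and between 51 and 52 Mb 10 of 16 were members, 9 with H3K9me3. On chromosome 19 between 3 and 4 Mb, 8 of 12 were members, all 8 with H3K9me3, whereas none of the 10 members among 82 peaks on chromosome 10 between 80 and 81 Mb touched it.

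**Figure D5:**
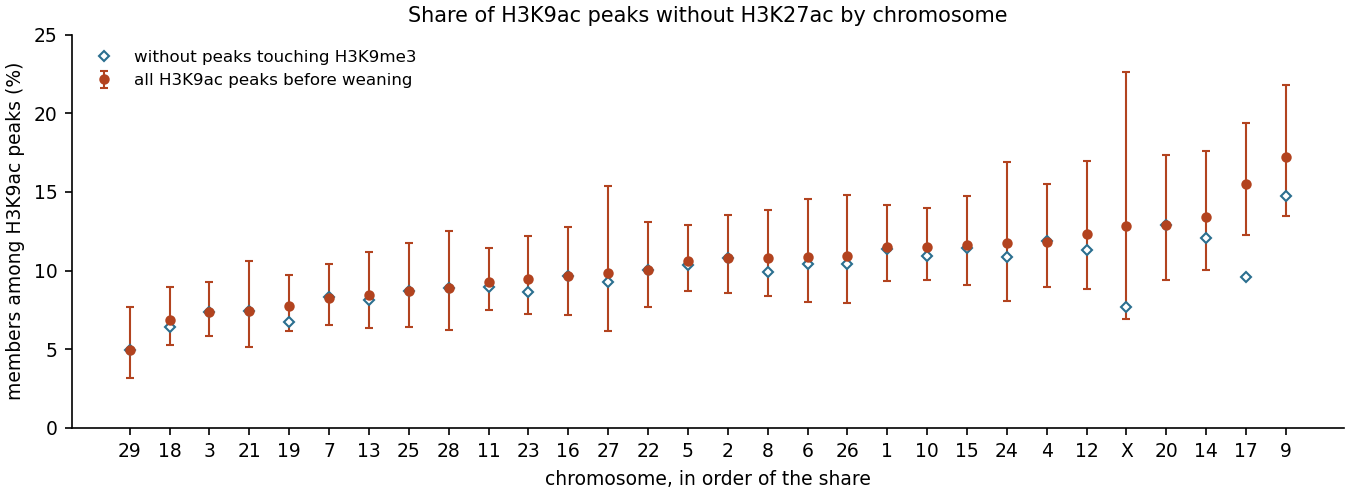
Share of the H3K9ac peaks before weaning that were members (%), by chromosome in order of the share, with 95% Wilson intervals (filled circles) and without the peaks that touched H3K9me3 (open diamonds). Chromosome 17 went from 15.5 to 9.59% without those peaks and chromosome 9 from 17.3 to 14.7%.

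The 2 Mb on chromosome 17 weighed on the contact shares of members. They held 21 of the 95 members touching H3K9me3 (22.1%) and 13 of the 51 touching all 6 lists, which lay on 11 chromosomes, 18 of them on chromosome 17. Without them, 1413 members were left, of which 70 touched RNA pol II before weaning (4.95%), 72 H3K9me3 before weaning (5.10%), 66 H3K9ac after weaning (4.67%), 128 H3K27ac after weaning (9.06%), 65 RNA pol II after weaning (4.60%) and 64 H3K9me3 after weaning (4.53%). The differences from the co-marked peaks were then -2.15 points (-3.26 to -0.817) for RNA pol II before weaning and -1.97 points (-3.04 to -0.669) for H3K9ac after weaning, with intervals that no longer held 0.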

How the data were processed

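Rumen epithelium of Holstein calves was profiled by ChIP-seq before and after weaning, with 1 library per target and time point and 1 input library. Before deposit, the authors aligned the quality-filtered reads to cattle assembly UMD3.1.1 (BWA, defaults). Reads mapping to several places, or with 2 or more mismatches, were dropped, and MACS2 (defaults) called peaks over the input. The submitters' processing notes also name Trim Galore 0.4.1 and give the build as UMD3.1. The deposited values are start and end positions of called peaks (bp), with no height, fold enrichment or p-value. Keeping unique alignments removes reads from repeats, and a caller threshold turns a graded signal into presence or absence, so a missing peak can be a weak one. Peak lists do not hold the depth of the libraries, and the mapping summary that the study provides was not used here.

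Groups were taken from the labels, also for RNA pol II, where the text of the study places the smaller list before weaning. The lowest end minus start was 199 bp in each list, so positions were read as 1-based with both ends included (lowest width 200 bp). Overlaps were computed in Python 3.11.15 with NumPy 2.4.6, pandas 2.3.3 and SciPy 1.17.1, checked on simulated data against bedtools 2.31.1, and plotted with matplotlib 3.10.9. Contact was at least 1 shared bp, distance the bases between peaks, and each contact share was set against that of the co-marked peaks. No p-value was computed, since each group holds 1 library. Named regions were the 5 widest members, the 5 farthest from H3K27ac before weaning, the 5 widest touching all other lists, the 5 widest with H3K27ac or with H3K9ac after weaning, the 5 widest with RNA pol II before weaning and no H3K9me3, and the peaks on either side of the limit. The alternatives were members over 1 kb from H3K27ac, peaks wider than the median, merging within 1 kb, dropping H3K27ac peaks of the lowest width, chromosomes 1 to 29 and X, leaving out 2 Mb on chromosome 17 or peaks touching H3K9me3, contact within 1 kb, and cover of at least 50%. The members, comparisons and lists were chosen with earlier results of these data known. Sequences and genes of this build were not analysed here.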

Additional observations from a re-analysis of the deposited data

How the results depend on the processing

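No paired analysis was possible because each target had 1 library at each time point. Of 124 values under alternatives, 66 stayed within the 95% interval of the reported value (within 1.5 times for the number of members) and 58 did not. Dropping H3K27ac peaks of the lowest width moved none. Keeping chromosomes 1 to 29 and X could move none, since all H3K9ac peaks lay on them, and its unchanged values are counted among the 66. Beside each value the lists run in the order RNA pol II, H3K9me3 before weaning, then H3K9ac, H3K27ac, RNA pol II, H3K9me3 after weaning, and differences are members minus co-marked peaks in percentage points unless stated. The cause of these shifts was not tested.

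With members more than 1 kb from H3K27ac, 830 were left at a median distance of 5046 bp. Their shares were 9.64, 9.76, 8.55 (H3K9ac after weaning), 9.04 (RNA pol II after weaning) and 8.92% (H3K9me3 after weaning), and the 6 differences, here from all other H3K9ac peaks including the members within 1 kb, were 2.73, 9.39, 2.08, -49.3, 8.62 and 8.56. Against the co-marked peaks alone, a setting chosen after seeing the data, they were 2.49, 9.47, 1.87, -51.6, 8.68 and 8.63. Among H3K9ac peaks wider than the median, 317 members of median width 305 bp were left, by construction. Their shares were 12.9, 13.3, 11.99, 17.7, 11.99 and 11.99%, and the differences 3.73, 12.9, 2.42, -54.0, 11.5 and 11.6. Under both choices the sign of the difference turned for RNA pol II before weaning and for H3K9ac after weaning, whose reported intervals hold 0, and it turned too, to 1.47 and 0.918, when a contact had to cover at least 50% of the peak. That setting gave 8.43% and -46.6 for H3K27ac after weaning. Contact within 1 kb gave shares of 7.18% for H3K9ac and 22.8% for H3K27ac after weaning, and differences of -6.96 for RNA pol II before weaning, -3.59 for H3K9ac and -53.6 for H3K27ac after weaning.

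Merging H3K9ac peaks within 1 kb gave a median distance of 1840 bp and differences of -2.64 (RNA pol II before weaning), -3.04 (H3K9ac after weaning) and -53.9 (H3K27ac after weaning). Without the 2 Mb on chromosome 17 the shares were 4.95, 5.10, 4.67 (H3K9ac after weaning), 4.60 (RNA pol II after weaning) and 4.53% (H3K9me3 after weaning), with differences of -2.15 and 4.86 before weaning and 4.30 for both RNA pol II and H3K9me3 after weaning. Without peaks touching H3K9me3 the differences were -6.47 for RNA pol II before weaning and -5.92, -55.6 and 0.0408 for H3K9ac, H3K27ac and RNA pol II after weaning. Depth limits a missing contact, since a weak mark may give no peak.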
